A study of Canis lupus familiaris with 34 samples.

Results

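The BMP and TGF-beta pathway genes of dog osteosarcoma were taken from the deposited gene table by name: every row whose symbol marks a BMP, a GDF, an inhibin beta chain, a TGF-beta or BMP or activin receptor, a SMAD, noggin, a gremlin, a chordin, a latent TGF-beta binding protein or an ID gene. The rule found 52 of the 23988 rows, of which 51 are reported here. By role these are 19 ligands, 12 receptors and co-receptors, 7 SMADs, 6 secreted antagonists, 2 latent TGF-beta binding proteins, 1 ID gene and 4 genes of shared name outside these roles. Genes of the family on rows without a symbol were not analysed here. Among these may be TGFB1, TGFB2, TGFB3, BMP4, SMAD4, ID1, ID2, ID3, LTBP1 and LTBP3, which the rule did not find. The 19 ligands thus include no TGF-beta. In all, 9653 rows carry only an Ensembl identifier.

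Ligands of this superfamily are secreted dimers that bring a type II receptor kinase together with a type I receptor kinase. BMPs signal mainly through SMAD1, SMAD5 and SMAD9, and TGF-beta and activins mainly through SMAD2 and SMAD3, while SMAD6 and SMAD7 feed back as inhibitors. Secreted antagonists such as noggin bind BMPs outside the cell, and latent TGF-beta binding proteins belong to the matrix that stores TGF-beta. In bone, BMPs are known for driving osteoblast differentiation, and TGF-beta is released from the matrix when osteoclasts resorb it.

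RNA of 34 libraries was sequenced on an Illumina HiSeq after TruSeq RNA v2 preparation. By the labels, 30 are primary bone tumours, 1 is a metastasis (DOS.6M), 2 are lines of osteosarcoma cells, OSCA.8 with 1 library and OSCA.78 with 1, grown from earlier primary tumours, and 1 is an osteoblast culture (CNOB). The breed label reads Golden Retriever for every library, although the design text also names Rottweilers, and neither treatment, genotype nor age is given for any group. Line and tumour titles share the numbers 8 and 78, and DOS.6M shares its number with the tumour DOS.6, but the labels do not say that these come from the same dogs. In bulk RNA, a lower value in a culture can mean fewer cells of a type or less RNA per cell, and these cannot be told apart.

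Values were taken to be FPKM, which counts fragments relative to transcript length and library size, so levels of different genes can be set side by side. Summed FPKM ran from 479053 to 837067 in the tumours and was 545129 and 573991 in the lines, against 1418308 in the osteoblast culture. The table gives no reads, so depth is unknown. DOS.46 and DOS.46.2 were averaged as 1 tumour, which leaves 29. Across all genes, the deviations of DOS.100 and DOS.32 from the tumour mean correlated at r = 0.84, above the 0.73 of the 2 libraries of number 46, and those of DOS.110 and DOS.115 correlated at r = 0.67. These 4 libraries were kept as separate tumours, and results that turn on them are also given without DOS.110 and DOS.115 or with DOS.100 and DOS.32 as 1 tumour. The osteoblast label was checked against bone markers. The culture had IBSP at 6.95 FPKM and SPP1 at 4.38 FPKM, under the lowest tumours at 48.6 and 47.4 FPKM. The other 6 of the 8 bone matrix markers lay within the tumour range, among them SP7 at 24.7 FPKM and COL1A2 at 5530 FPKM. Of these, DMP1 (0.429 FPKM) and PHEX (0.0753 FPKM) were close to the lowest tumours, at 0.306 and 0.0605 FPKM. With all libraries scaled to equal sums, the 8 markers summed to 7070 FPKM in the culture, below the tumour range of 7429 to 38134.

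Of the 51 members, 43 reached 1 FPKM in at least 2 libraries and entered the tests. The other 8 were all ligands: BMP10, BMP15, GDF2, GDF3, GDF5, GDF7, INHBC and INHBE, of which BMP15 was listed at 0 in every library. In the tumours, 29 members were at 1 FPKM or more in every one of the 29. The median tumour level of a tested member was 9.98 FPKM, beside the 8.56 FPKM of all 15165 genes tested. The spread was wider: the median SD of log2(FPKM + 1) across tumours was 0.76 for members and 0.54 for all genes, and 10 of the 43 members (23.3%) lay among the 10% of genes with the largest SD. Those 10 were the ligands BMP3, BMP5, BMP7 and INHBB, the co-receptor TGFBR3, the antagonists BMPER, CHRDL1, CHRDL2 and GREM1, and the matrix protein LTBP2. None was a SMAD, and 4 of the 6 antagonists were among them.

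**Figure D1:**
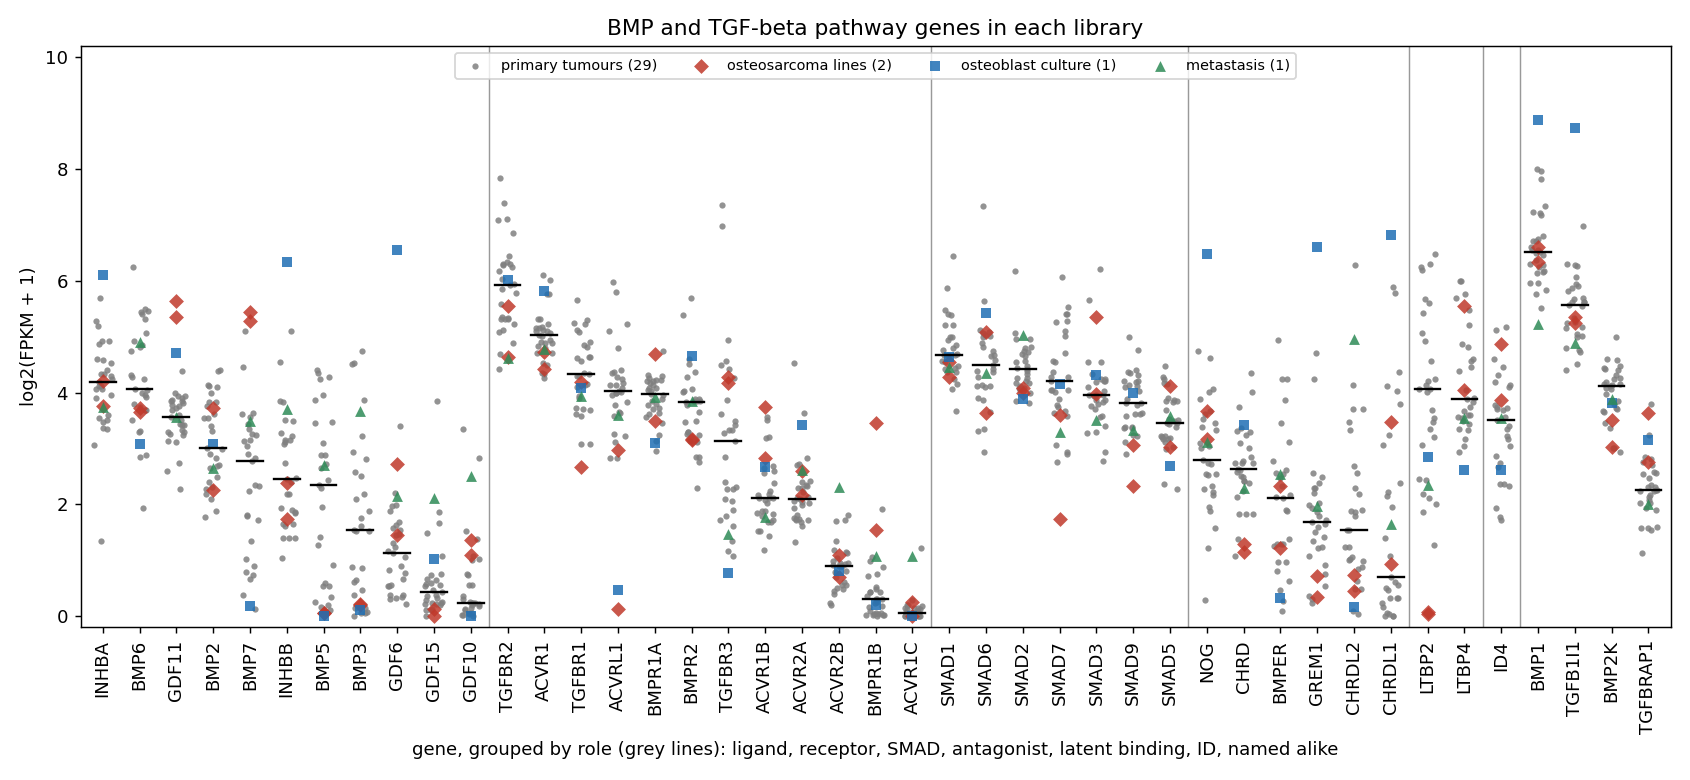
Each point is 1 library and each column 1 of the 43 members tested, on a scale of log2(FPKM + 1), with the role groups parted by grey lines and ordered within a group by tumour median (black bars). The 29 tumours are grey, the 2 osteosarcoma lines red, the osteoblast culture blue and the metastasis green. Blue points stand above every tumour for 9 members, among them GREM1, NOG and CHRDL1.

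Among the 19 ligands, none of them a TGF-beta, the activin subunit INHBA and the bone-inducing ligand BMP6 had the highest tumour medians. INHBA, whose dimer is activin A, ran from 1.52 FPKM in DOS.111 through a median of 17.3 to 51.0 in DOS.28. BMP6 ran from 2.80 FPKM in DOS.75 through 15.7 to 75.2 in DOS.70. BMP6 was the highest of the 19 ligands in 12 of the 29 tumours and INHBA in 11, so 1 of this pair led in most tumours. The remaining tumours were led by BMP5 (2), INHBB (2), BMP7 (1) and GDF15 (1).

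BMP5 and BMP3 varied most among the ligands. BMP5, a ligand of skeletal development, ranged from 0.0678 FPKM in DOS.101 through 4.11 to 20.1 in DOS.8, with an SD of 1.52 on the log2 scale. BMP3, which is abundant in bone matrix and opposes other BMPs, ranged from 0 in DOS.75 through 1.91 to 25.8 FPKM in DOS.100, with an SD of 1.46. DOS.32 followed DOS.70 as the next high tumours of BMP3, at 21.8 and 22.04 FPKM. GDF15, a stress-induced ligand of a distant branch, was at or under 2.66 FPKM in every tumour except DOS.85, where it reached 13.4 FPKM. BMP2, which induces bone formation, was steadier, from 2.44 through 7.07 to 20.2 FPKM. INHBB, the subunit of activin B, ran from 1.06 FPKM in DOS.32 through 4.49 to 33.2 in DOS.81. The tested ligands with the lowest medians were GDF10 at 0.180 FPKM, GDF15 at 0.345 FPKM and GDF6 at 1.19 FPKM, although GDF10 reached 9.23 FPKM in DOS.70.

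TGFBR2, the type II receptor that binds TGF-beta, was the highest type II receptor in 29 of 29 tumours, at 20.5 FPKM in DOS.112, a median of 60.0 and 229 in DOS.115. ACVR1, a type I receptor for BMPs and activins, had the next highest median, from 18.1 through 31.5 to 68.0 FPKM. It was the highest of the 7 type I receptors in 21 tumours, and ACVRL1 and TGFBR1 each led in 4. The other common type I receptors had close medians, with TGFBR1 at 19.1 FPKM, ACVRL1 at 15.4 FPKM and BMPR1A, the main BMP type I receptor of mesenchyme, at 14.8 FPKM. BMPR2, the BMP type II receptor, ran from 3.91 FPKM in DOS.112 through 13.3 to 50.5 in DOS.46. At the low end, ACVR2B had a median of 0.862 FPKM, ACVR1C, a receptor for nodal-like ligands, had a median of 0.0437 FPKM and BMPR1B, a BMP receptor of cartilage condensations, 0.231 FPKM. TGFBR3, the co-receptor betaglycan, had the widest spread of the receptors (SD 1.56), from 1.11 FPKM in DOS.8 through 7.72 to 163 in DOS.115 and 125 in DOS.110. ACVRL1, known from endothelial cells, ranged from 6.09 FPKM in DOS.32 to 62.1 in DOS.115.

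All 7 SMADs were above 1 FPKM in every tumour. SMAD1, a BMP effector, had the highest median, from 11.7 FPKM in DOS.84 through 24.6 to 86.1 in DOS.81, and it was the highest of the 5 receptor-activated SMADs in 18 tumours. SMAD2, the activin and TGF-beta effector, led in 8. SMAD6, the inhibitor of BMP signals, ran from 6.62 FPKM in DOS.57 through 21.5 to 160 in DOS.28, whose value stood far above the next tumour at 48.8. DOS.28 also held the highest SMAD3, at 73.0 FPKM against a median of 14.5, and the highest INHBA. SMAD7, the inhibitor shared by the whole family, had the largest SD of the SMADs (0.86), from 5.73 FPKM in DOS.85 through 17.4 to 66.4 in DOS.111. SMAD5, another BMP effector, had the lowest median of the SMADs, from 3.85 through 9.98 to 21.3 FPKM.

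Among the 6 antagonists that the rule found, noggin and chordin had the highest medians. Other pathway genes were not ranked with them, and had medians both above theirs (FSTL3, 12.5 FPKM) and below (FST, 2.61 FPKM). NOG, which blocks BMPs directly, ran from 0.226 FPKM in DOS.75 through 5.92 to 25.8 in DOS.100 and 23.4 in DOS.32. It was the highest of these 6 in 14 of the 29 tumours. CHRD, which binds BMPs until BMP1 or its relatives cleave it, ran from 1.12 FPKM in DOS.101 through 5.24 to 19.4 in DOS.115. It led in 5 tumours, and CHRDL1 led in 6.

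CHRDL1, a chordin-like BMP inhibitor, had the largest SD of all 43 members (1.83), from 0 through 0.616 to 58.2 FPKM. It reached 1 FPKM in 14 of the 29 tumours and was highest in DOS.110 and DOS.115, at 58.2 and 54.3 FPKM. CHRDL2, its relative, had an SD of 1.40 and a single very high tumour, DOS.111 at 76.5 FPKM, with the next at 16.6 and a median of 1.91. GREM1, which binds BMP2 and its close relatives, peaked at 25.3 FPKM in DOS.76 over a median of 2.21. BMPER, a binding protein that can block or promote BMP signals, was highest in DOS.115 at 29.9 FPKM over a median of 3.34.

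LTBP2, a microfibril protein that unlike its relatives does not bind latent TGF-beta well, ran from 1.41 FPKM in DOS.112 through 15.6 to 88.1 in DOS.100. LTBP4, which holds latent TGF-beta1, ran from 6.64 FPKM in DOS.57 through 13.8 to 63.1 in DOS.100. ID4, the single ID gene found, is an inhibitor of basic helix-loop-helix factors; it ran from 2.30 FPKM in DOS.75 through 10.4 to 35.2 in DOS.32. Both LTBP4 and ID4 had DOS.100 and DOS.32 as their highest tumours, with DOS.32 at 63.0 FPKM for LTBP4 and DOS.100 at 33.7 FPKM for ID4.

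Among the genes of shared name, BMP1 is the protease that trims procollagens and cleaves chordin. It was at 44.4 FPKM in DOS.101, a median of 90.8 and 256 in DOS.37, the highest median of all members. TGFB1I1, a focal adhesion protein induced by TGF-beta, had a median of 46.7 FPKM, BMP2K, a kinase linked to BMP2, 16.3 FPKM, and TGFBRAP1, a protein that binds TGF-beta receptors, 3.77 FPKM.

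DOS.110 and DOS.115 were the 2 highest tumours for 6 of the 43 members (13.95%), against 2.70% of all genes tested. Besides TGFBR3 and CHRDL1, these were GDF6, a ligand of joint formation, at 9.60 and 3.58 FPKM; ACVR1B, an activin type I receptor, at 10.3 and 10.8 FPKM; ACVR2A, an activin type II receptor, at 11.5 and 22.1 FPKM; and CHRD at 15.1 and 19.4 FPKM. Both the 6 genes and this pair of tumours were singled out after their values were seen, so the shares are description only. The median tumour had 1.19 FPKM of GDF6, 3.33 FPKM of ACVR1B and 3.25 FPKM of ACVR2A.

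**Figure D2:**
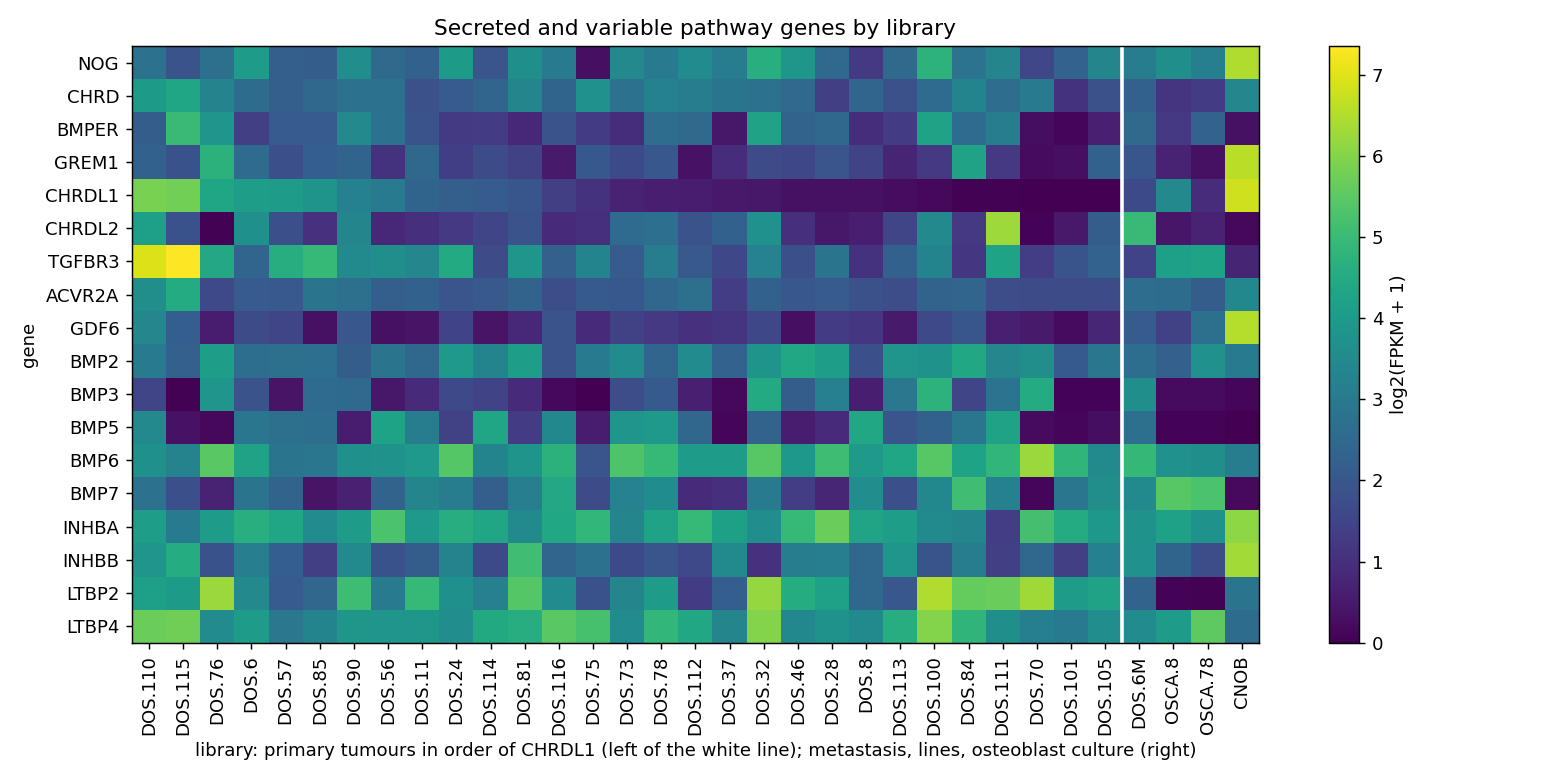
Colour gives log2(FPKM + 1) of 18 secreted or variable members (rows) in each library (columns), with the 29 tumours ordered by CHRDL1 and the metastasis, both lines and the osteoblast culture right of the white line. DOS.110 and DOS.115 stand at the left end, bright for CHRDL1 and TGFBR3, and the osteoblast culture at the right end is bright for GREM1, NOG, CHRDL1, GDF6, INHBA and INHBB.

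Cultured osteosarcoma cells were set against the primary tumours to see which pathway genes differ between them. Of the 43 members, 3 rose in the lines (the ligands GDF11 and BMP7 and the receptor BMPR1B) and 4 fell (the receptor ACVRL1, the effector SMAD9, the antagonist CHRD and the matrix protein LTBP2). By limma with Benjamini-Hochberg adjustment over all 15165 genes, 7 of 43 members (16.3%) passed, against 16.4% of all genes (8.49% higher, 7.92% lower), so the share of members is near the background. The median difference was -0.16 on the log2(FPKM + 1) scale for members and -0.05 for all genes. By role, 2 of 11 tested ligands rose and none fell, 1 of 12 receptors rose and 1 fell, 1 of 7 SMADs fell, 1 of 6 antagonists fell, 1 of 2 latent binding proteins fell, and neither ID4 nor any of the 4 genes of shared name passed. At an unadjusted limma p under 0.05, 10 of the 43 members differed, against 4628 of all 15165 genes, so this count shows no excess of members. With only 2 lines, the spread behind every p-value comes almost wholly from the tumours.

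GDF11, an activin-like ligand that patterns the skeleton, ranged from 3.87 through 10.8 to 19.99 FPKM in the tumours and was at 40.0 FPKM (OSCA.8) and 49.0 FPKM (OSCA.78). Both lines lay above every tumour. GDF11 rose by 1.99 ± 0.33 (SE) on the log2 scale, with a limma adjusted p of 8.43e-05. This call held with either line alone, at 1.85 (limma adjusted p = 0.0243) for OSCA.8 and 2.14 (limma adjusted p = 0.00309) for OSCA.78. The tumours DOS.8 and DOS.78, whose titles carry the lines' numbers, were at 10.3 and 13.6 FPKM.

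BMP7, a bone-inducing ligand, ranged from 0.0944 FPKM in DOS.70 through 5.82 to 33.2 in DOS.84, and was at 42.4 FPKM (OSCA.8) and 37.8 FPKM (OSCA.78). Here too both lines lay above every tumour. BMP7 rose by 2.96 ± 0.87 (SE), limma adjusted p = 0.0182. With 1 line the difference was as large but passed no threshold: 3.04 for OSCA.8 alone (limma adjusted p = 0.247) and 2.88 for OSCA.78 alone (limma adjusted p = 0.116). With the osteoblast culture (0.130 FPKM) added to the lines it was 1.23 (limma adjusted p = 0.272). DOS.8 and DOS.78 were at 11.2 and 10.8 FPKM. In OSCA.8 BMP7 was the highest of the 19 ligands, and in OSCA.78 GDF11 was.

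BMPR1B, one of the type I receptors for BMP and GDF ligands, ranged from 0 through 0.231 to 2.76 FPKM in DOS.11 among the tumours. It was at 10.01 FPKM (OSCA.8) and 1.90 FPKM (OSCA.78), so OSCA.8 lay above all tumours and OSCA.78 inside their range. BMPR1B rose by 2.12 ± 0.35 (SE), with a limma adjusted p of 7.55e-05. With a pseudocount of 0.1 FPKM the difference was 3.84. Without OSCA.8 the difference was 1.16 (limma adjusted p = 0.0695).

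ACVRL1, the type I receptor ALK1 of endothelial cells, ranged from 6.09 through 15.4 to 62.1 FPKM in the tumours, against 6.85 FPKM (OSCA.8) and 0.0958 FPKM (OSCA.78). OSCA.8 was thus at the low end of the tumours and only OSCA.78 beneath them. ACVRL1 fell by 2.54 ± 0.58 (SE) on the log2 scale, limma adjusted p = 0.00269; without OSCA.78 the difference was -1.12 (limma adjusted p = 0.573). Of the endothelial markers, 7 of the 9 tested fell in the lines. The list summed to 111 to 2512 FPKM in the tumours, against 37.5 in OSCA.8 and 51.8 in OSCA.78. PECAM1, CDH5, PLVAP, TEK, TIE1, ESAM and ERG were each under 1 FPKM in both lines, so they did not part the lines as ACVRL1 did. Other lists fell as well, with 11 of 11 macrophage markers and 3 of 5 smooth muscle and pericyte markers, but 0 of 4 osteoclast markers. The part of these markers in the ACVRL1 result was not tested.

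SMAD9, a BMP effector, ranged from 6.49 through 13.1 to 30.8 FPKM in the tumours and was at 4.05 FPKM (OSCA.8) and 7.35 FPKM (OSCA.78). Only OSCA.8 lay below the tumours. SMAD9 fell by 1.16 ± 0.37 (SE), limma adjusted p = 0.0287, a call lost without either line (-0.80, limma adjusted p = 0.316, without OSCA.8; -1.52, limma adjusted p = 0.123, without OSCA.78), with quantile normalization (limma adjusted p = 0.050004) and with the osteoblast culture among the lines (-0.73, limma adjusted p = 0.0828).

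CHRD ranged from 1.12 through 5.24 to 19.4 FPKM in the tumours, and both lines were near the lowest tumour, at 1.22 FPKM (OSCA.8) and 1.44 FPKM (OSCA.78). CHRD fell by 1.46 ± 0.51 (SE), limma adjusted p = 0.0452. That call was lost at much the same size without OSCA.8 (-1.39, limma adjusted p = 0.1999), without OSCA.78 (-1.53, limma adjusted p = 0.347) and without the filter on low values (-1.46, limma adjusted p = 0.0584). It was also lost with quantile normalization (-1.24, limma adjusted p = 0.0799) and with the osteoblast culture among the lines (-0.73, limma adjusted p = 0.228).

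LTBP2 was at 0.0531 FPKM (OSCA.8) and 0.0332 FPKM (OSCA.78), both below the lowest of the 29 tumours (1.41 FPKM). It fell by 3.93 ± 1.02 (SE), with a limma adjusted p of 0.00758. With a pseudocount of 0.1 FPKM the difference was -6.66. With 1 line the size was the same but the call was lost, at -3.92 (limma adjusted p = 0.179) without OSCA.78 and -3.95 (limma adjusted p = 0.0642) without OSCA.8. The osteoblast culture held 6.15 FPKM, inside the tumour range. Fibroblast markers fell for 2 of 5 and smooth muscle and pericyte markers for 3 of 5 in the lines, and bone matrix markers for 4 of 8. Across the 29 tumours, LTBP2 did not pass with the mean of any of these lists. Pearson's r was -0.09 for fibroblast, 0.02 for smooth muscle and pericyte and 0.33 for bone matrix markers. The part of these markers in the LTBP2 result was not tested.

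**Figure D3:**
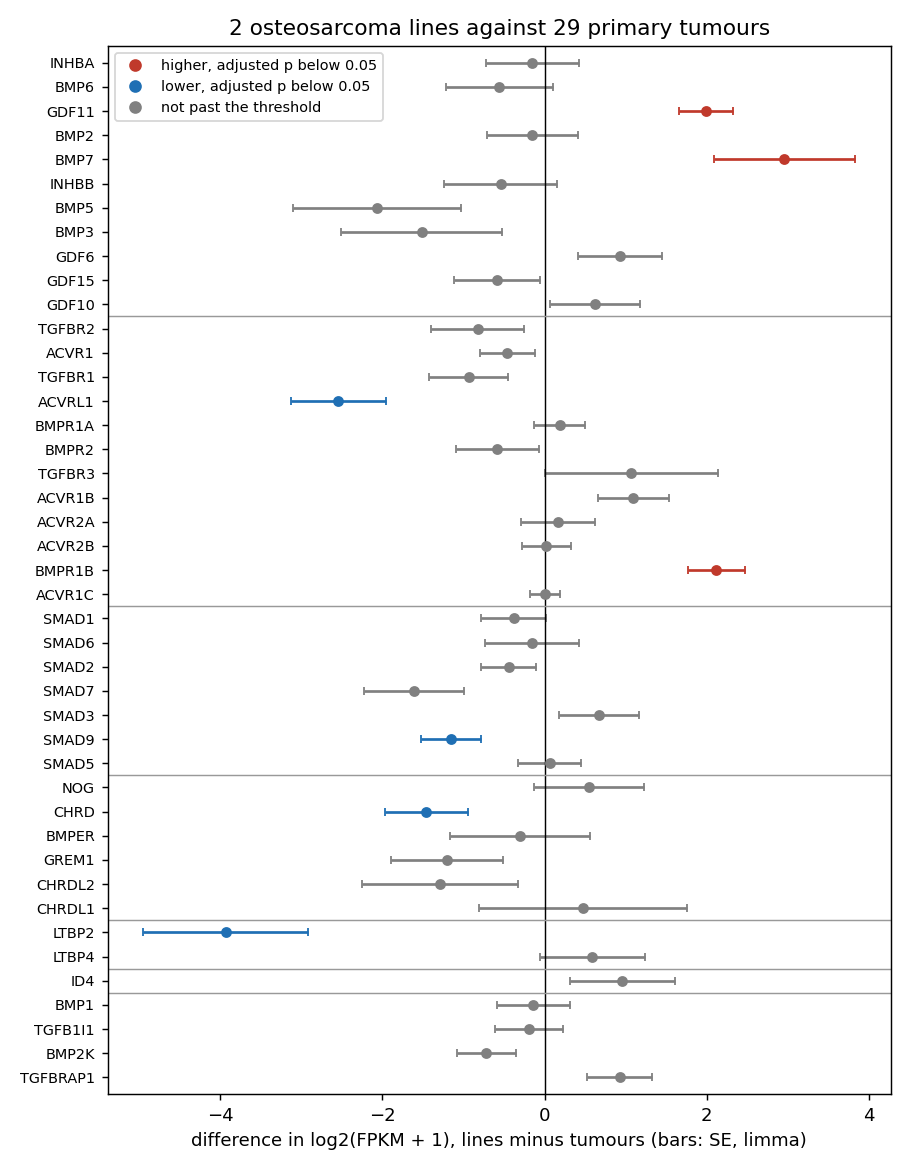
The difference in log2(FPKM + 1) between the 2 lines and the 29 tumours is plotted for each of the 43 members tested, with bars of 1 SE from limma and role groups parted by grey lines. Red marks the 3 members that rose, blue the 4 that fell and grey the 36 that did not pass; LTBP2 at -3.93 and BMP7 at 2.96 lie farthest out.

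Several members outside the 7 were singled out after their values were seen, of which SMAD7 and ACVR1B came nearest the threshold. BMP5 was below every tumour in both lines, at 0.0419 FPKM (OSCA.8) and 0.0448 FPKM (OSCA.78), but the lowest tumour held 0.0678 and the difference of -2.07 did not pass (limma adjusted p = 0.174). In all, both lines lay above every tumour for BMP7 and GDF11 (4.65% of members, against 4.04% of genes) and below every tumour for BMP5 and LTBP2 (4.65%, against 7.30% of genes). SMAD7 was below every tumour in OSCA.8 at 2.35 FPKM and inside the range in OSCA.78 at 11.1 FPKM; its difference of -1.61 missed the threshold (limma adjusted p = 0.0665) and passed with a pseudocount of 0.1 FPKM (-1.81, limma adjusted p = 0.0485). TGFBRAP1 was at 5.80 FPKM (OSCA.8) and 11.4 FPKM (OSCA.78) over a tumour median of 3.77, and its difference of 0.93 did not pass (limma adjusted p = 0.109). ACVR1B, at 6.08 FPKM (OSCA.8) and 12.3 FPKM (OSCA.78), differed by 1.09 (limma adjusted p = 0.0845), and by 1.19 without DOS.110 and DOS.115 (limma adjusted p = 0.0274).

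Of 59 other genes of the pathway, 50 were found by symbol and 47 tested; 8 rose in the lines and 5 fell (27.7% called, against 16.4% of all genes), with a median difference of 0.06. The largest rises were those of SOSTDC1, a BMP and Wnt antagonist, by 2.38 ± 0.78 (SE, limma adjusted p = 0.0333), RGMA, a BMP co-receptor, by 2.02 (limma adjusted p = 0.0268), and ZNF423, a SMAD partner, by 1.56 (limma adjusted p = 0.0421). SOSTDC1 stood at 2.85 FPKM (OSCA.8) and 31.8 FPKM (OSCA.78) over a tumour median of 0.539, and without OSCA.78 its difference was 0.84 (limma adjusted p = 0.799). RGMA was even between the lines, at 11.9 FPKM (OSCA.8) and 12.3 FPKM (OSCA.78) over a tumour median of 1.67, and its call was lost at the same size without OSCA.8 (2.04, limma adjusted p = 0.127) or OSCA.78 (2.002, limma adjusted p = 0.317). ZNF423 was at 7.38 FPKM (OSCA.8) and 38.4 FPKM (OSCA.78) over a tumour median of 5.10, and without OSCA.78 its difference was 0.45 (limma adjusted p = 0.856).

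ENG, the endothelial co-receptor endoglin that pairs with ACVRL1, fell by 2.91 (limma adjusted p = 0.0100), but the lines parted: 0.105 FPKM (OSCA.8) and 36.7 FPKM (OSCA.78), over a tumour median of 41.3. Without OSCA.8 its difference was -0.36 (limma adjusted p = 0.815). ENG was thus below every tumour only in OSCA.8, and ACVRL1 only in OSCA.78, although OSCA.8 was at the low end of the tumours for ACVRL1 too. LRRC32, which displays latent TGF-beta on cells, fell by 2.46 (limma adjusted p = 0.0199), to 0.409 FPKM (OSCA.8) and 0.550 FPKM (OSCA.78), both below the lowest tumour at 1.68; the call was lost at a like size without OSCA.8 (-2.39, limma adjusted p = 0.121) or OSCA.78 (-2.53, limma adjusted p = 0.256). SKIL, a repressor of SMAD-driven transcription, fell by 1.79 ± 0.36 (SE, limma adjusted p = 7.20e-04), to 2.93 FPKM (OSCA.8) and 2.88 FPKM (OSCA.78) against at least 7.35 in every tumour, and missed the threshold without OSCA.78 (-1.78, limma adjusted p = 0.0529). The other rises were FSTL1, RGMB, ITGB8, HTRA1 and TAB1, and the other falls TWSG1 and ZEB1.

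The osteoblast culture, a single library with no replicate and no test, was set beside the same tumours and so shares them with the comparison of the lines. It lay above every tumour for 9 of 43 members (20.9%, against 22% of all genes) and below every tumour for 4 (9.30%, against 19.5%). With all libraries scaled to equal sums these counts were 5 (11.6%, against 6.23%) and 9 (20.9%, against 38.0%).

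Of the 6 antagonists, 3 were above every tumour in the culture. CHRDL1 was at 112 FPKM (highest tumour 58.2), GREM1 at 96.2 FPKM (highest tumour 25.3) and NOG at 88.2 FPKM (highest tumour 25.8). These are differences from the tumour mean of 5.11, 4.87 and 3.61 on the log2 scale, and GREM1 and NOG stayed above every tumour after scaling to equal sums, while CHRDL1 did not. The other antagonists went another way: CHRD at 9.67 FPKM was inside the tumour range, and BMPER (0.258 FPKM) and CHRDL2 (0.115 FPKM) were at its low end.

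Ligands above every tumour in the culture were GDF6 at 92.4 FPKM (highest tumour 9.60), INHBB at 79.5 FPKM (highest tumour 33.2), INHBA at 67.7 FPKM (highest tumour 51.0) and GDF11 at 25.1 FPKM (highest tumour 19.99). BMP5 was listed at 0. GDF6 was the highest of the 19 ligands there. Among receptors, ACVRL1 (0.382 FPKM) and TGFBR3 (0.701 FPKM) were below every tumour, as was LTBP4 (5.12 FPKM). BMP1 at 470 FPKM and TGFB1I1 at 427 FPKM were above all tumours, whose highest values were 256 and 125. After scaling to equal sums only GDF6, INHBB and TGFB1I1 of these genes remained above. BMP5, ACVRL1, TGFBR3 and LTBP4 were below every tumour with and without this scaling. With it, BMP7, BMPR1A, SMAD1, SMAD2 and SMAD5 were below every tumour too. The endothelial list summed to 65.7 FPKM in the culture, against at least 111 in the tumours. Most of that came from EGFL7 (50.6 FPKM), which lay inside the tumour range, as did FLT1 (7.10 FPKM) and ERG (4.59 FPKM). The rest of the list was below every tumour, with PECAM1 at 0.312 FPKM and CDH5 at 0.284 FPKM. The smooth muscle and pericyte list summed to 651 FPKM against at most 495 in the tumours. That sum came from NOTCH3 (285 FPKM), KCNMB1 (211 FPKM) and MCAM (155 FPKM), while RGS5 (0.0663 FPKM) and MYH11 (0.424 FPKM) were below every tumour, and with equal sums it was 286 FPKM, inside the tumour range of 46.6 to 541. The part of these markers in the values was not tested.

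The metastasis DOS.6M, also 1 library, lay inside the tumour range for most members. It was above every tumour for 1 of 43 (2.33%, against 5% of genes), ACVR2B, an activin type II receptor, at 3.96 FPKM against at most 2.49. It was below every tumour for 1 (2.33%, against 3.53% of genes), BMP1 at 36.5 FPKM. Scaled to equal sums, the same 2 members lay outside the tumours, against 3.41% of genes above and 3.82% below. DOS.6, the tumour of the same number, held 2.24 FPKM of ACVR2B and 55.9 FPKM of BMP1.

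Set beside DOS.6, the metastasis differed by at least 1 on the log2 scale for 6 members (13.95%, against 9.05% of genes), 4 higher and 2 lower, and by at least 2 for 1 member (2.33%, against 1.48%). The largest difference was in an antagonist, CHRDL1, at 2.12 FPKM against 16.3 in DOS.6 (-2.47). LTBP2 was also lower, at 4.08 against 10.1 FPKM (-1.12). The higher ones were BMP3 at 11.7 against 2.71 FPKM (1.77), CHRDL2 at 29.9 against 12.1 FPKM (1.25), BMPER at 4.82 against 1.62 FPKM (1.15) and GDF10, a BMP3-like ligand, at 4.69 against 1.60 FPKM (1.13). With 1 library each, these are values of 2 libraries and carry no test.

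Which members rise and fall together across tumours was asked for 8 planned pairs of genes that passed the filter on low values, over the 29 tumours, with 100000 permutations and Benjamini-Hochberg adjustment over the 8. ACVRL1 followed CDH5, the cadherin of endothelial junctions (Pearson's r = 0.78, permutation p = 1e-05, the smallest that 100000 permutations can give, adjusted permutation p = 8e-05; Spearman's rho = 0.72, permutation p = 4e-05, adjusted permutation p = 1.6e-04; r = 0.66 without the 2 tumours farthest from the ACVRL1 median). BMP3 followed DMP1, a matrix protein of osteocytes (r = 0.71, permutation p = 2e-05, adjusted permutation p = 8e-05; rho = 0.72, permutation p = 1e-05, adjusted permutation p = 8e-05; r = 0.68 without the 2 farthest tumours). With DOS.100 and DOS.32 as 1 tumour, r was 0.80 and 0.69, and without DOS.110 and DOS.115 it was 0.73 and 0.70.

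SMAD6 and SMAD7, both feedback inhibitors, had r = 0.37 (permutation p = 0.0487, adjusted permutation p = 0.130), and rho = 0.47 (permutation p = 0.0115, adjusted permutation p = 0.0307), with r = 0.41 without the 2 farthest tumours, so the pair passed by rank and not by r. INHBA did not pass with LTBP2 (r = -0.34, rho = -0.36, adjusted permutation p = 0.152 for r and 0.115 for rho, raw permutation p = 0.0759 and 0.0573; r = -0.31 without the 2 farthest). INHBA with POSTN, a matrix protein of stroma and periosteum, had r = 0.22 (raw permutation p = 0.244, adjusted permutation p = 0.390) and rho = 0.07 (0.732 both raw and adjusted), and r turned to -0.18 without the 2 farthest tumours. GREM1 with POSTN had r = 0.05 (raw permutation p = 0.799, adjusted 0.848) and rho = 0.16 (raw permutation p = 0.416, adjusted 0.475), but r = 0.39 without the 2 farthest. SMAD6 with CDH5 had r = 0.19 (raw permutation p = 0.308, adjusted 0.411), rho = 0.24 (raw permutation p = 0.214, adjusted 0.342) and r = 0.21 without 2 tumours. CHRDL2 with HAPLN1, a cartilage link protein, had r = 0.04 (0.848 both raw and adjusted by permutation), rho = 0.18 (raw permutation p = 0.354, adjusted 0.472) and r = 0.24 without 2 tumours.

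**Figure D4:**
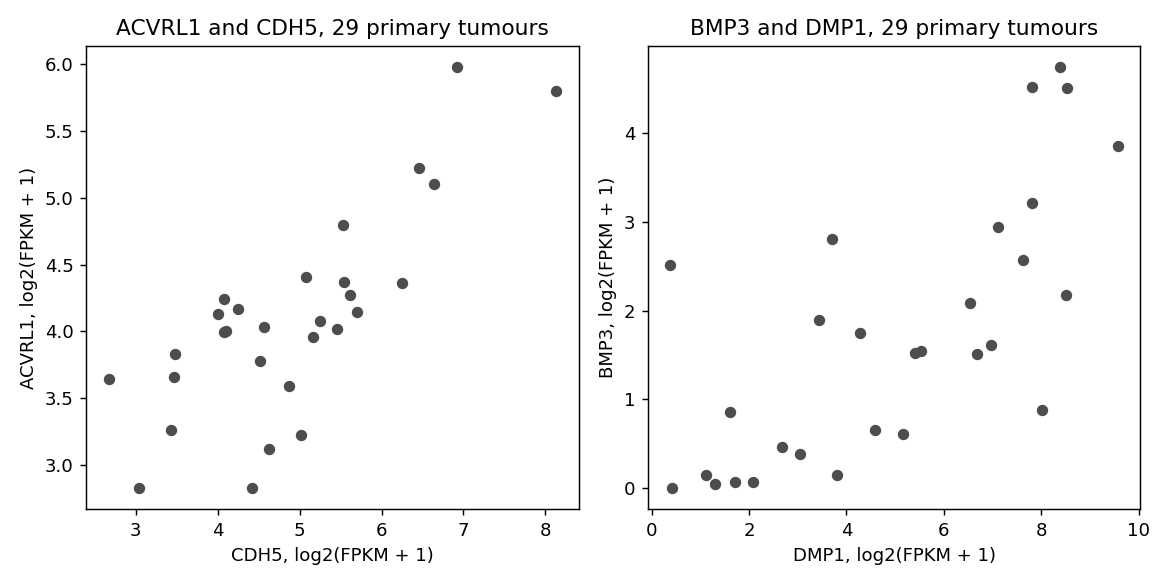
Each point is 1 of 29 tumours, with both axes in log2(FPKM + 1): ACVRL1 against CDH5 on the left and BMP3 against DMP1 on the right. Tumours high in CDH5 were high in ACVRL1 (r = 0.78), and tumours high in DMP1 were high in BMP3 (r = 0.71).

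Each member was also set against scores of 8 cell types, a score being the mean log2(FPKM + 1) of that type's markers, an analysis chosen after seeing the data. P-values were adjusted over 121320 relations of all genes with the 8 scores. Of 344 relations of members, 14 passed by Pearson's r and all 14 were positive (4.07% of relations, against 2.58% for all genes). LTBP4 had the negative relations nearest the threshold: with the macrophage score it was at r = -0.56 (rho = -0.46, raw permutation p = 0.00153 and 0.0134, adjusted permutation p = 0.0551 and 0.194, r = -0.34 without the 2 tumours farthest from the score's median). Without DOS.110 and DOS.115 that relation passed, at r = -0.78 (adjusted permutation p = 0.00316). It also passed with quantile normalization (r = -0.57, adjusted permutation p = 0.0494) and with the 2 libraries of number 46 kept apart (r = -0.56, adjusted permutation p = 0.0454), and with DOS.100 and DOS.32 as 1 tumour it was at r = -0.48 (adjusted permutation p = 0.175). Without DOS.110 and DOS.115, 2 more relations passed, those of GDF15 with the smooth muscle and pericyte score (r = 0.57, adjusted permutation p = 0.0409) and TGFBR2 with the osteoclast score (r = 0.62, adjusted permutation p = 0.0333). No member passed with the fibroblast or T cell score, where 0.435% and 1.11% of all genes did.

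The endothelial score gave 4 relations (4.40% of genes passed), led by ACVRL1 (r = 0.85, rho = 0.85, adjusted permutation p = 0.00154 and 0.00206, r = 0.79 without the 2 tumours farthest from the score's median). SMAD1 followed (r = 0.80, rho = 0.73, adjusted permutation p = 0.00154 and 0.00206, r = 0.67 without 2), then TGFBR2 (r = 0.67, rho = 0.64, adjusted permutation p = 0.00349 and 0.0163, r = 0.69 without 2) and TGFB1I1 (r = 0.60, rho = 0.55, adjusted permutation p = 0.0334 and 0.0773, r = 0.52 without 2). CDH5 is in that list, so the ACVRL1 result is not separate from its planned pair. Raw permutation p was 1e-05 for ACVRL1 and SMAD1 by both measures, 3e-05 and 1.9e-04 for TGFBR2, and 6.8e-04 and 0.00225 for TGFB1I1. Without DOS.110 and DOS.115 the TGFB1I1 relation was at r = 0.53 and did not pass (adjusted permutation p = 0.115).

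The same 4 genes passed with the smooth muscle and pericyte score (5.94% of genes passed): ACVRL1 at r = 0.85 and rho = 0.84 (adjusted permutation p = 0.00154 and 0.00206, r = 0.80 without 2 tumours), TGFB1I1 at r = 0.75 and rho = 0.66 (0.00154 and 0.0168 by permutation, r = 0.65 without 2), SMAD1 at r = 0.66 and rho = 0.66 (0.00666 and 0.0119 by permutation, r = 0.65 without 2) and TGFBR2 at r = 0.63 and rho = 0.60 (0.0214 and 0.0398 by permutation, r = 0.48 without 2). Raw permutation p was 1e-05 by both measures for ACVRL1, 1e-05 and 2e-04 for TGFB1I1, 7e-05 and 1.2e-04 for SMAD1, and 3.5e-04 and 7.3e-04 for TGFBR2. The 2 tumours farthest from the median of this score gave the same r values as leaving out DOS.110 and DOS.115, and without them TGFBR2 did not pass (adjusted permutation p = 0.188), so that relation rests on them.

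With the macrophage score (3.93% of genes passed), TGFBR1, the TGF-beta type I receptor, had r = 0.74 and rho = 0.70 (adjusted permutation p = 0.00154 and 0.009, raw permutation p = 1e-05 and 8e-05, r = 0.62 without 2). TGFBR2 had r = 0.59 and rho = 0.57 (adjusted permutation p = 0.0402 and 0.0551, raw permutation p = 9.2e-04 and 0.00124, r = 0.54 without 2), and did not pass with DOS.100 and DOS.32 as 1 tumour (adjusted permutation p = 0.0666) or without DOS.110 and DOS.115 (0.0801). All 11 macrophage markers tested fell in the lines, from 94.9 to 1689 FPKM summed in the tumours to 2.09 in OSCA.8 and 2.43 in OSCA.78. TGFBR1 was at 17.2 FPKM (OSCA.8) and 5.37 FPKM (OSCA.78), and its difference in the lines did not pass.

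The bone matrix score (1.24% of genes passed) followed BMP2 (r = 0.67, rho = 0.66, adjusted permutation p = 0.0122 and 0.0132, raw permutation p = 1.6e-04 and 1.4e-04, r = 0.61 without 2) and BMP3 (r = 0.63, rho = 0.66, adjusted permutation p = 0.0173 and 0.0119, raw permutation p = 2.6e-04 and 1.2e-04, r = 0.63 without 2). DMP1 is in that list, so the BMP3 result is not separate from the pair above. BMPR1B passed with the cartilage score (1.44% of genes passed; r = 0.59, rho = 0.59, adjusted permutation p = 0.0347 and 0.0523, raw permutation p = 7.3e-04 and 0.00114, r = 0.53 without 2). It reached 1 FPKM in only 2 of the 29 tumours, with a median of 0.231 FPKM, so this relation rests mostly on values near the floor. BMP2K passed with the osteoclast score (2.18% of genes passed; r = 0.59, rho = 0.62, adjusted permutation p = 0.0347 and 0.0268, raw permutation p = 7.3e-04 and 4e-04, r = 0.54 without 2), and not with DOS.100 and DOS.32 as 1 tumour (adjusted permutation p = 0.0541).

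**Figure D5:**
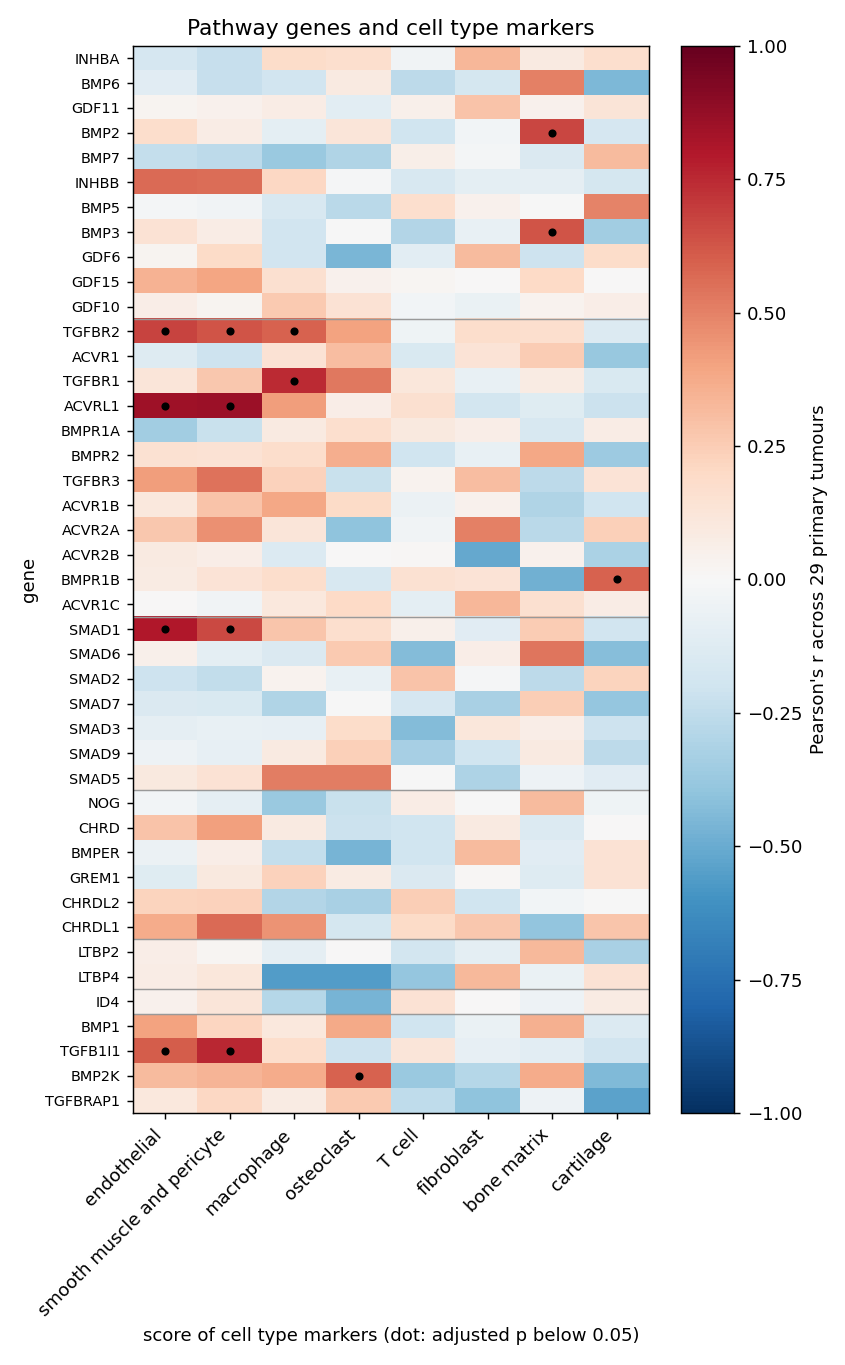
Colour gives Pearson's r across 29 tumours between each of the 43 members (rows, by role) and 8 marker scores (columns), red positive and blue negative, with a dot where the adjusted permutation p was below 0.05. The 14 dots are all on positive values, with ACVRL1, SMAD1, TGFBR2 and TGFB1I1 dotted for both the endothelial and the smooth muscle and pericyte scores.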

How the data were processed

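Total RNA of 34 libraries was sequenced, and the authors deposited 1 table of values per gene. The table states no unit, and its values were taken to be FPKM because, per the submitters' processing notes, Cufflinks 2.2.1 was used beside TopHat2 2.0.13, FastQC 0.11.2 and canFam3. The sources used here do not give the annotation, the parameters or what was masked, so differing transcript models or masked sequence could shift single genes, and depth is unknown. No replicate cultures are stated, and each line has 1 library. The p-values of lines against tumours therefore measure mainly the spread between tumours, which may be partly technical.

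Values were tested as log2(FPKM + 1), which understates changes of low genes, after keeping the 15165 genes at 1 FPKM or more in at least 2 libraries. The 2 lines were compared with 29 tumours, without the metastasis and the osteoblast culture, in limma 3.58.1 (R 4.3.3; lmFit, then eBayes with its trend and robust settings; two-sided tests), and p-values were adjusted by Benjamini-Hochberg across all genes at a threshold of 0.05; the scripts were tested on simulated data. Correlations passed by the adjusted p of Pearson's r and used 100000 two-sided permutations (Python 3.11.15, numpy 2.4.6, scipy 1.17.1, pandas 2.3.3, matplotlib 3.10.9); 20 of 28 planned pairs had a gene without a tested row. Alternatives were another pseudocount, no filter, upper-quartile, quantile and equal-sum scaling, other variance moderation, other groupings and leaving out libraries.

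Named in full are members past the threshold and, in each role, the 2 with the highest median and the 2 with the largest SD; other names were chosen after their values were seen, and of the other pathway genes the 3 largest called changes each way are given. TGFB1I1 was planned as one of these and is counted as a member only. The members and lists were chosen with earlier results of these data known. One gene that the rule matched is not reported here. All 51 members were found by symbol in RefSeq's table of another assembly, so no coordinates are given.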

Additional observations from a re-analysis of the deposited data

Results flagged for a closer look

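A pair of ligands kept out of the tests by the filter on low values reached 1 FPKM in a single library. BMP10, known from the heart, was at 2.05 FPKM in the osteoblast culture, and no tumour exceeded 0.223 FPKM. GDF7, a ligand of tendon and neural development, was at 2.48 FPKM in the tumour DOS.110, with the next tumour, DOS.115, at 0.681 FPKM and a median of 0.0385 FPKM. Each is the value of 1 library with no replicate.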

How the results depend on the processing

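Counts of members that rose stayed between 3 and 4 under every other setting except those with fewer samples: 2 rose without OSCA.78 and 1 without OSCA.8 (range 1 to 2). Of members that fell, 0 passed without OSCA.78 (4 at an unadjusted limma p under 0.05: SMAD7, SMAD9, CHRD and LTBP2, not ACVRL1) and 1 without OSCA.8 (range 0 to 1); 2 passed with quantile normalization and 2 with the osteoblast culture among the lines. With the title number as a replicate block, over 2 lines and 2 tumours, limma called 0 members higher and 0 lower (5 each way at an unadjusted p under 0.05) and 0 of 15165 genes; same-numbered libraries deviated together at r = 0.27, and the labels do not say that the numbers pair dogs. All 7 calls kept their direction in each setting, and GDF11 passed in each except the block.

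Over all genes, 2489 were called, 51.7% of them higher. The share higher was 40.9% with upper-quartile scaling and 40.6% with a pseudocount of 0.1 FPKM. The number called was 344 without OSCA.78, 4580 with the osteoblast culture among the lines and 1998 without OSCA.8. Of the 47 other pathway genes 13 were called (27.7%, against 16.4% of all genes). Most of these calls were lost without OSCA.78 and some without OSCA.8, and calls over all genes fell in both settings too. With the block 0 of the 47 were called, as were 0 of all 15165 genes. In the osteoblast culture, members above all tumours numbered 5 with equal sums instead of 9, and members below all tumours 9 with equal sums and 8 with upper-quartile scaling instead of 4. By Pearson's r, the planned pairs past the threshold were the same 2 in each setting, and the relations with marker scores numbered 12 to 18 instead of 14, with 1 or 2 negative ones, all of LTBP4 with the macrophage or osteoclast score, in 4 of the settings. No reads were given, so what depth limits is unknown.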
